A study of Mus musculus with 16 samples.

Results

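The genes described here encode the nuclear factors that copy and transcribe mitochondrial DNA. They were chosen by name, with earlier results of these data known but by a rule that uses no measured value: 10 genes of the 55604 listed in the count tables, namely Tfam, Polrmt, Tfb1m, Tfb2m, Tefm, Polg, Polg2, Twnk, Lrpprc and Slirp. All 10 had enough counts to be tested. Their levels were compared between tumor-associated macrophages (TAMs) that carry the phosphatidylserine receptor Tim-4 on their surface and TAMs that do not, beside the 37 genes of mitochondrial DNA in the same libraries.

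Mitochondrial DNA is a small circular genome that encodes subunits of the respiratory chain and the rRNAs and tRNAs needed to translate them. Every protein that copies, transcribes or packages it is encoded in the nucleus and imported. TFAM coats and bends the DNA and recruits the RNA polymerase POLRMT, which starts transcription together with TFB2M and is kept on the template by TEFM, while the helicase Twinkle opens the DNA ahead of the polymerase POLG. The DNA is transcribed into long RNAs that are cut into the single genes, and the LRPPRC and SLIRP proteins then hold and stabilise the mRNAs.

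The data were 8 bulk RNA-seq libraries from peritoneal TAMs of C57BL/6 mice bearing ID8, a mouse ovarian cancer line grown in the peritoneal cavity. The mice were female and 6 to 8 weeks old at the start, and the TAMs were taken 6 to 7 weeks into tumor growth. No gene was altered in either group: the groups, labelled Tim4+ and Tim4-, differed in isolation, with Tim-4+ TAMs taken first by an anti-Tim-4 antibody and magnetic beads after a density gradient, and Tim-4- TAMs then enriched from the cells left over with beads against the macrophage antigen that Adgre1 encodes. Each group had 4 libraries, which carried the numbers 793, 784, 783 and 779 in both, so that the libraries formed 4 pairs. The numbers used here are those of the labels; the study's own material appears to give them to the same pairs in reverse order, which would change the name of a pair but not which libraries form it. The labels do not say whether a number was a mouse or a pool of mice, and the p-values measure only the spread between these pairs.

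Counts assigned to genes ranged from 53527928 to 57768202 in the Tim-4+ libraries and from 55618306 to 69594245 in the Tim-4- libraries. Timd4, which encodes Tim-4, was higher in the Tim-4+ library of every pair, with levels of 524 to 1744 CPM (gene counts scaled to a common library size) against 1.97 to 85.0 CPM in the Tim-4- libraries. All 6 macrophage markers checked (Adgre1, Csf1r, Cd68, Mertk, Itgam and Lyz2) were present, and their summed level was 43018 to 55498 CPM in Tim-4+ and 20532 to 32958 CPM in Tim-4- TAMs. The Tim-4- libraries also held more RNA of mesothelial and tumor markers, of which 10 of 10 passed the test as lower in Tim-4+ TAMs. Their summed level was 113 to 403 CPM in Tim-4+ and 455 to 2197 CPM in Tim-4- libraries. CPM were scaled by the trimmed mean of M values (TMM), which brings the median difference of all 16861 tested genes to -0.00 on the log2 scale.

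None of the 10 genes was called higher in Tim-4+ TAMs, and 2 were called lower. Tfam, the packaging and transcription factor of mitochondrial DNA, fell 1.55-fold, and Twnk, which encodes the Twinkle helicase, fell 1.53-fold. The other 8 did not pass the test, an adjusted p under 0.05 in edgeR's quasi-likelihood test, which took the pair into account and adjusted p by Benjamini-Hochberg over every gene tested, and the same 2 genes had an unadjusted p under 0.05. DESeq2 with the same block also called these 2 lower and 0 higher. Of all tested genes, 17.4% were called in either direction, 8.97% as higher and 8.43% as lower in Tim-4+ TAMs. With so few members, 2 lower genes of 10 are not read as a property of the group. The median log2 difference of the 10 genes was -0.18, with 4 above 0 and 6 below 0, and -0.09 without pair 793. In the same libraries 17 of the 27 tested genes of mitochondrial DNA itself were called higher in Tim-4+ TAMs and 1 lower, with a median log2 difference of 1.17 over its 13 mRNAs. In bulk RNA a lower share of cells that express a gene and less of its RNA per cell cannot be told apart.

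**Figure D1:**
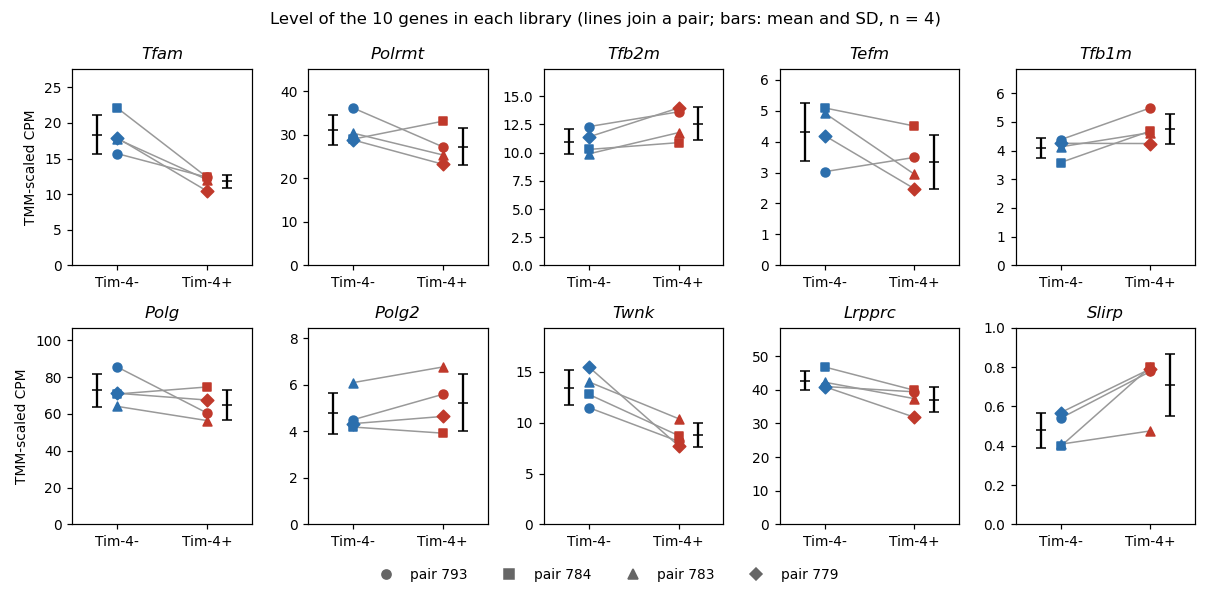
Level of each of the 10 genes in TMM-scaled CPM (vertical axes, starting at 0) in the 4 Tim-4- libraries (blue) and the 4 Tim-4+ libraries (red), with a symbol for each pair, a line joining the libraries of a pair and black bars for the mean and SD (n = 4). Lines for Tfam, Twnk and Lrpprc fall in all 4 pairs and those for Tfb2m and Slirp rise in all 4, while the other genes have lines in both directions.

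Among the factors of transcription, Tfam showed the clearest difference. Tfam (ENSMUSG00000003923.14) lies on chromosome 10, from 71225464 to 71238280 on the minus strand (GRCm38), and its 9 exon blocks share no base with exons of another gene. Its level was 12.4, 12.4, 12.0 and 10.4 CPM in the Tim-4+ libraries of pairs 793, 784, 783 and 779, and 15.7, 22.1, 17.7 and 17.9 CPM in the Tim-4- libraries. All Tim-4+ libraries thus lay below all Tim-4- libraries, and the Tim-4+ libraries were close to each other. The means were 11.8 ± 0.926 and 18.4 ± 2.69 CPM (SD, n = 4), and the log2 difference was -0.63 with a standard error (SE) of 0.14, a 95% interval of -0.95 to -0.31 and an adjusted p of 0.0231. Within the pairs the log2 ratio was -0.34 in pair 793, -0.84 in 784, -0.56 in 783 and -0.78 in 779. The call needed nearly all pairs: the adjusted p was 0.0512 without pair 793, 0.106 without 784 and 0.0848 without 779, and 0.0697 in a fit that ignored the pairs.

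Polrmt (ENSMUSG00000020329.12; chromosome 10, 79736123 to 79746581, minus strand), the RNA polymerase of mitochondria, was measured at 27.2, 33.1, 25.4 and 23.2 CPM in Tim-4+ and 36.1, 29.0, 30.4 and 28.8 CPM in Tim-4- TAMs, in the same order of pairs. The groups overlapped, since pair 784 was higher in Tim-4+ TAMs and the other 3 pairs were lower. Its log2 difference was -0.20 ± 0.13 (SE), with a 95% interval of -0.50 to 0.10 and an adjusted p of 0.334. The level of Tfam relative to Polrmt needs no scaling between libraries: there were 0.455, 0.374, 0.475 and 0.450 counts of Tfam per count of Polrmt in Tim-4+ and 0.434, 0.763, 0.584 and 0.622 in Tim-4- TAMs. This ratio was lower in Tim-4+ TAMs in 3 of 4 pairs and about level in pair 793, with overlapping groups.

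Tfb2m (ENSMUSG00000026492.11; chromosome 1, 179528055 to 179546267, minus strand), whose protein melts the promoter for POLRMT, ran the other way. It stood at 13.6, 10.9, 11.8 and 14.0 CPM in Tim-4+ and 12.3, 10.3, 9.89 and 11.4 CPM in Tim-4- TAMs. The Tim-4+ library was the higher in all 4 pairs, by little each time, and the groups overlapped. The log2 difference of 0.19 ± 0.14 (SE) did not pass (95% interval -0.12 to 0.51, adjusted p = 0.361). Of the 50-base stretches in its transcripts, 31.9% also occur in a gene named Gm1818. Reads that were not unique were set aside in counting, so the counts of Tfb2m may be too low.

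Tefm (ENSMUSG00000046909.9; chromosome 11, 80136678 to 80142175, minus strand), the elongation factor, had few counts, 119 to 386 per library. Its level was 3.49, 4.50, 2.94 and 2.48 CPM in Tim-4+ and 3.03, 5.09, 4.92 and 4.19 CPM in Tim-4- TAMs. It was lower in Tim-4+ TAMs in 3 pairs and higher in pair 793, and the interval was wide, from -0.94 to 0.21 around a log2 difference of -0.37 ± 0.25 (SE, adjusted p = 0.342). Tfb1m (ENSMUSG00000036983.7; chromosome 17, 3519256 to 3557781, minus strand) encodes a relative of TFB2M that methylates the small rRNA of the mitochondrial ribosome. Tfb1m was at 5.48, 4.68, 4.62 and 4.24 CPM in Tim-4+ and 4.38, 3.58, 4.13 and 4.25 CPM in Tim-4- TAMs, higher in 3 pairs and level in pair 779. The log2 difference was 0.22 ± 0.20 (SE, 95% interval -0.24 to 0.67, adjusted p = 0.483).

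Among the factors of replication, Twnk differed and the polymerase subunits did not pass the test. Twnk (ENSMUSG00000025209.4) lies on chromosome 19, from 45005663 to 45012762 on the plus strand. It was measured at 8.15, 8.72, 10.4 and 7.72 CPM in Tim-4+ and at 11.5, 12.8, 14.0 and 15.5 CPM in Tim-4- TAMs of pairs 793, 784, 783 and 779. Again every Tim-4+ library lay below every Tim-4- library, with means of 8.74 ± 1.17 and 13.4 ± 1.71 CPM (SD, n = 4). The log2 difference was -0.62 ± 0.16 (SE, 95% interval -0.98 to -0.25, adjusted p = 0.0349), and the ratio within pair 779 was wider than in the other pairs, at -0.43 to -0.55. The adjusted p rose to 0.0906 without pair 793, 0.115 without 784 and 0.116 without 779, to 0.0886 without the pair block and to 0.0541 when lane 2 of each library was used alone. Exons of Mrpl43, on the opposite strand, cover 12.6% of the exonic bases of Twnk, and Mrpl43 itself had a log2 difference of 0.01 (adjusted p = 0.980).

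Polg (ENSMUSG00000039176.17; chromosome 7, 79446231 to 79466362, minus strand), the catalytic subunit of the DNA polymerase, was measured at 60.5, 74.7, 56.4 and 67.6 CPM in Tim-4+ and 85.5, 70.9, 64.1 and 71.3 CPM in Tim-4- TAMs. The groups overlapped, with pair 793 showing the widest gap and pair 784 the opposite direction. The log2 difference was -0.17 ± 0.12 (SE, 95% interval -0.45 to 0.10, adjusted p = 0.358). Exons of Fanci, on the opposite strand, cover 8.57% of its exonic bases, and Fanci had the lower value in the Tim-4+ library of all 4 pairs but did not pass (log2 difference -0.61 ± 0.23, SE, adjusted p = 0.110). Polg2 (ENSMUSG00000020718.12; chromosome 11, 106768253 to 106779537, minus strand), the accessory subunit that keeps POLG on the template, was at 5.59, 3.92, 6.76 and 4.64 CPM in Tim-4+ and 4.50, 4.18, 6.09 and 4.33 CPM in Tim-4- TAMs. In both groups pair 783 was the highest, and the log2 difference was 0.12 ± 0.19 (SE, 95% interval -0.32 to 0.55, adjusted p = 0.705). Counts of Twnk per count of Polg were 0.135, 0.117, 0.184 and 0.114 in Tim-4+ and 0.134, 0.180, 0.218 and 0.217 in Tim-4- TAMs. The helicase was thus lower relative to the polymerase in 3 of 4 pairs, and level in pair 793.

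Of the factors that hold mitochondrial mRNA, Lrpprc (ENSMUSG00000024120.12; chromosome 17, 84705247 to 84790789, minus strand) was measured at 39.4, 39.9, 37.4 and 31.9 CPM in Tim-4+ and 41.0, 46.8, 42.3 and 40.9 CPM in Tim-4- TAMs. Its groups did not overlap and all 4 pairs had the lower value in Tim-4+ TAMs, but the gap was small. The log2 difference was -0.21 ± 0.10 (SE, 95% interval -0.44 to 0.03) and did not pass, with an adjusted p of 0.201. With Tfam and Twnk, Lrpprc made 3 genes of 10 whose Tim-4+ libraries all lay below the Tim-4- libraries, against 5.92% of all tested genes, and no member had the reverse, against 6.84%.

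Slirp (ENSMUSG00000021040.15; chromosome 12, 87443896 to 87452206, plus strand), which encodes the RNA-binding partner of LRPPRC, had only 26 to 40 counts in a library. Its level was 0.778, 0.800, 0.475 and 0.791 CPM in Tim-4+ and 0.540, 0.397, 0.408 and 0.568 CPM in Tim-4- TAMs, with the Tim-4+ library above its partner each time and overlapping groups (log2 difference 0.56 ± 0.39, SE, adjusted p = 0.365). This value cannot be read as a level of Slirp. Exons of Snw1 and Alkbh1, on the opposite strand, cover 97.8% of its exonic bases, and the sources used here do not state whether the counting used strand. Without Slirp the median log2 difference of the members was -0.20.

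**Figure D2:**
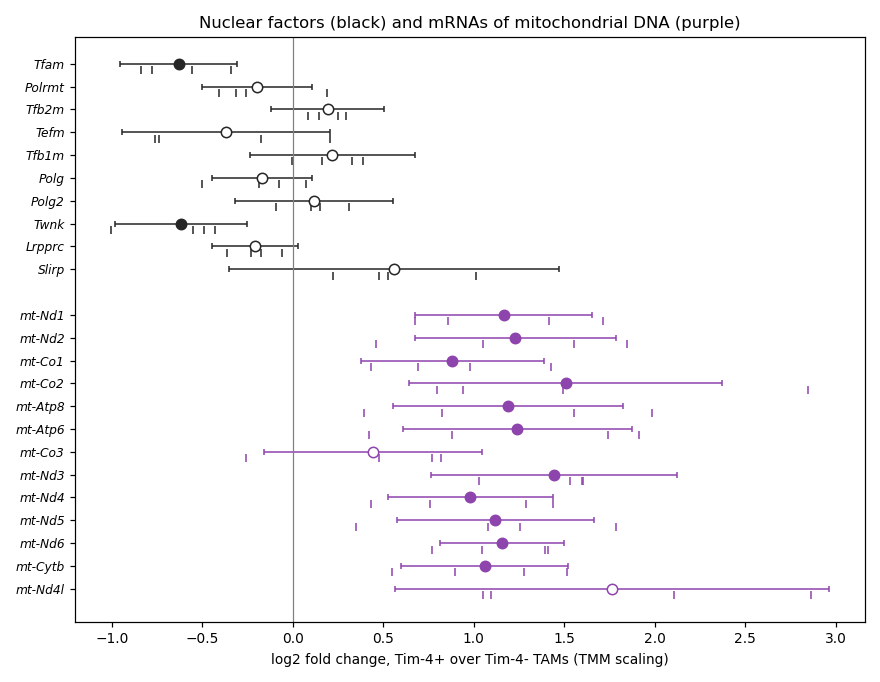
Log2 fold change of Tim-4+ over Tim-4- TAMs (horizontal axis, TMM scaling) for the 10 nuclear factors (black) and the 13 mRNAs of mitochondrial DNA (purple). Circles show the fitted value, filled where the adjusted p was under 0.05, lines the 95% interval, and ticks the log2 ratio within each of the 4 pairs; Tfam and Twnk are the filled black circles, at -0.63 and -0.62, and the mRNAs of mitochondrial DNA all lie to the right of 0.

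Members were compared with each other per kb of principal transcript, as CPM per kb. In Tim-4- TAMs Lrpprc (9.73 ± 0.629, SD, n = 4), Polg (9.31 ± 1.15) and Polrmt (8.27 ± 0.919) were the most abundant, and these neighbours overlapped each other. A step followed to Tfb2m (4.48 ± 0.447), and Tfam (4.41 ± 0.646), Twnk (3.85 ± 0.489), Tefm (3.29 ± 0.716), Polg2 (3.17 ± 0.589) and Tfb1m (2.91 ± 0.250) formed a run in which each overlapped the next. In Tim-4+ TAMs the top 4 kept their order, with Lrpprc at 8.45 ± 0.836 and Tfb2m at 5.13 ± 0.601 CPM per kb. Below them Tfam (2.83 ± 0.222) and Twnk (2.51 ± 0.335) stood after Polg2 (3.47 ± 0.817) and Tfb1m (3.39 ± 0.372), a change of places with them. The order depends on the length used: per kb of all annotated exons, Polg led in both subsets, and Polg2 and Tfb1m stood last but for Slirp.

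**Figure D3:**
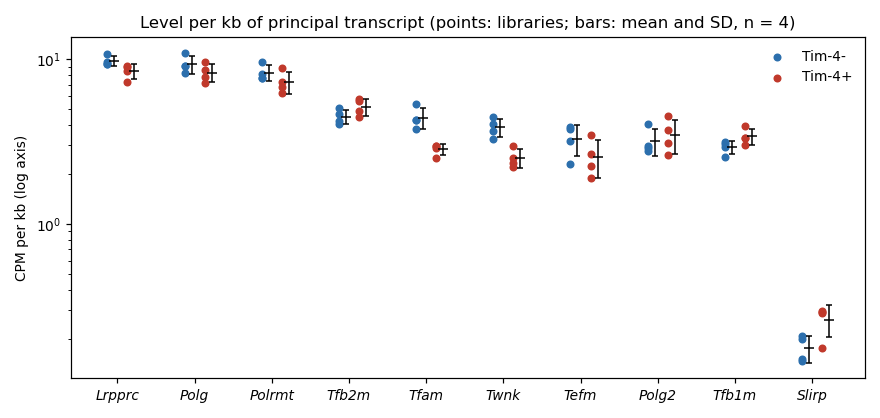
Level of the 10 genes in CPM per kb of principal transcript (vertical axis, log scale) in the 4 Tim-4- (blue) and 4 Tim-4+ (red) libraries, ordered by the Tim-4- mean, with black bars for the mean and SD. Red points all lie below the blue for Tfam and Twnk and, by a narrow gap, for Lrpprc. Slirp points lie far below the other genes in both subsets. They cannot be read as its level, since exons of other genes cover nearly all of its own.

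The mRNAs of mitochondrial DNA mostly moved in the direction opposite to Tfam and Twnk. Of its 13 mRNAs, 11 were called higher in Tim-4+ TAMs and 0 lower (12 and 0 by DESeq2), 12 had an unadjusted p under 0.05, and the log2 differences ran from 0.44 to 1.77. The mRNA of mt-Nd1, a complex I subunit with no 50-base stretch in another transcript, was at 2790.2, 1838, 2203 and 3998 CPM in Tim-4+ and 1044, 1150.0, 1216 and 1218 CPM in Tim-4- TAMs (log2 difference 1.17 ± 0.21, SE, adjusted p = 0.0132). The Tim-4- libraries were close together and the Tim-4+ libraries spread, with pair 784 the lowest and 779 the highest. mt-Cytb of complex III had a log2 difference of 1.06 ± 0.20 (SE, adjusted p = 0.0143), and mt-Nd6, the mRNA copied from the other strand of mitochondrial DNA, of 1.16 ± 0.15 (adjusted p = 0.00653). The sources used here do not state whether counting used strand, so counts of mt-Nd6 may include RNA of the opposite strand. Of the 13, only 1 was called without pair 793, 784 or 779 or without the pair block, with the direction of the median kept.

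The remaining mRNAs were mt-Nd2 (log2 difference 1.23), mt-Nd5 (1.12) and mt-Nd4 (0.98) of complex I, mt-Co1 (0.88) of complex IV, and mt-Atp8 (1.19) and mt-Atp6 (1.24) of ATP synthase, all called higher. mt-Co2 (1.51) and mt-Nd3 (1.44) were called higher from levels under 11 CPM, and neither mt-Co3 (0.44) nor mt-Nd4l (1.77) passed. Nearly all of the 50-base stretches of these 4 mRNAs and of mt-Atp6 (98.0% to 100%), 62.2% of those of mt-Nd4 and 51.1% of those of mt-Co1 also occur in transcripts of other genes, so that all these counts are uncertain. mt-Co3 was lower in Tim-4+ TAMs in pair 779 alone (log2 ratio -0.26). The Tim-4- library of that pair had 38 counts of mt-Co3 in lane 1 and 546 in lane 2. Both rRNAs were called higher, mt-Rnr1 by 0.73 ± 0.14 and mt-Rnr2 by 0.78 ± 0.19 (log2 difference, SE), with adjusted p-values of 0.0160 and 0.0308. The libraries had been depleted of rRNA, so these values describe what the depletion left. Neither rRNA was called without pair 793, 784 or 779 (adjusted p of 0.0505 to 0.0932) or without the block, nor was mt-Rnr2 under total-count scaling. mt-Rnr1 encodes the rRNA that the TFB1M protein methylates. Of the 22 tRNAs 12 had enough counts to be tested, and 4 were called higher and 1 lower. The lower gene, mt-Ts1, named after its values were seen, was at 4.10, 3.72, 3.56 and 6.78 CPM in Tim-4+ and 10.1, 8.97, 12.1 and 21.3 CPM in Tim-4- TAMs, 2.82-fold lower with no overlap (adjusted p = 0.00526, and 0.0535 without the block). Like those of mt-Nd6, the counts of mt-Ts1 may include RNA of the opposite strand, so they cannot be read as its level alone.

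Comparison within a library avoids the choice of scaling. The 13 mRNAs had 130, 74.2, 111 and 197 counts per summed count of the 10 members in Tim-4+ libraries of pairs 793, 784, 783 and 779, and 46.6, 50.3, 54.5 and 56.0 in Tim-4- libraries. Every Tim-4+ library lay above every Tim-4- library, by 2.34-fold on the mean log2 scale. Such sums lean on the genes with the most counts, mt-Co1 among the mRNAs and Polg among the members. The counts of mt-Co1 are uncertain, as said above. Per count of Tfam the gap was wider, 3.13-fold, with 1861, 1159, 1555 and 3153 mRNA counts in Tim-4+ and 637, 466, 596 and 622 in Tim-4- libraries. It was 3.11-fold per count of Twnk, 2.32-fold per count of Polrmt, 2.28-fold per count of Polg and 2.34-fold per count of Lrpprc. The share of all counts on the 37 genes of mitochondrial DNA was 1.99% ± 0.630 in Tim-4+ and 1.22% ± 0.103 in Tim-4- TAMs (SD, n = 4). The share was higher in the Tim-4+ library of 4 of 4 pairs. An exact permutation test with swaps within pairs (two-sided) gave p = 0.125, the smallest that 4 pairs allow. In pair 784 the gap was small, with 1.277% in the Tim-4+ and 1.248% in the Tim-4- library. The groups overlapped, since this Tim-4+ library lay below the Tim-4- library of pair 779, at 1.332%.

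**Figure D4:**
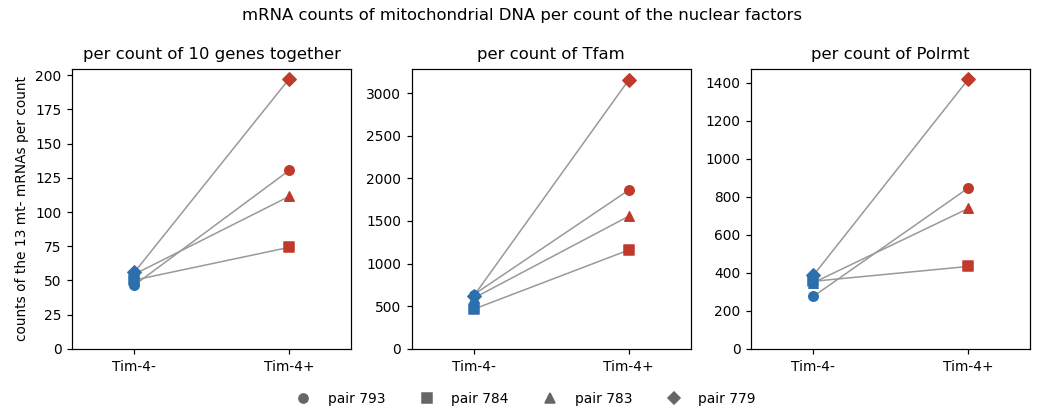
Summed counts of the 13 mRNAs of mitochondrial DNA per count of all 10 members, of Tfam and of Polrmt (vertical axes, starting at 0) in Tim-4- (blue) and Tim-4+ (red) libraries, with a symbol and a joining line for each pair. All lines rise from left to right; the gap is 2.34-fold for the 10 genes, 3.13-fold for Tfam and 2.32-fold for Polrmt, and is smallest in pair 784 in all 3 panels.

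Pair by pair, the median log2 ratio of the 13 mRNAs was 1.29 in pair 793, 0.47 in 784, 0.90 in 783 and 1.71 in 779. The median of the 10 members was 0.04, -0.01, -0.18 and -0.19 in the same pairs. The members' medians spanned a narrower range over the pairs than those of the mRNAs.

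Other genes of the pathway mostly did not pass the test. Of 13 further genes of mitochondrial DNA maintenance, 0 were called higher and 1 lower, Dna2, a nuclease and helicase that works on both nuclear and mitochondrial DNA. Dna2 was at 13.6, 7.26, 14.7 and 7.59 CPM in Tim-4+ and 30.9, 21.3, 31.3 and 19.0 CPM in Tim-4- TAMs, a log2 difference of -1.28 ± 0.13 (SE, adjusted p = 0.00394) with no overlap, and it was called with each pair left out but not without the block (adjusted p = 0.0590). The list's median was 0.01, against -0.00 for all tested genes, 3 of the 13 had an unadjusted p under 0.05, and DESeq2 called 0 higher and 3 lower. Ssbp1, which coats single-stranded mitochondrial DNA, had a log2 difference of 0.05 (95% interval -0.22 to 0.32), Mgme1, an exonuclease of replication, of 0.01 (-0.33 to 0.35), and Top1mt, the mitochondrial topoisomerase, of 0.42 (-0.01 to 0.86, adjusted p = 0.160).

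In the list of mitochondrial RNA processing and turnover, 25 of 26 genes were tested, with 0 called higher and 1 lower and a median log2 difference of -0.01. There 6 had an unadjusted p under 0.05, and DESeq2 called 1 higher and 2 lower. The gene called by edgeR was Fastkd3, of the FASTK family of mitochondrial RNA-binding proteins, with a log2 difference of -0.76 ± 0.19 (SE, adjusted p = 0.0343) and no overlap between groups, and it was not called without pair 793, 784 or 779 (adjusted p of 0.0622 to 0.140) or without the block. Mterf3 and Mterf4, of the family of mitochondrial termination factors, had differences of -0.01 and -0.20, and Lonp1, the matrix protease that degrades TFAM, had -0.20 (95% interval -0.47 to 0.06, adjusted p = 0.262). None of these 3 passed.

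In the list of nucleotide supply to mitochondria 2 of 13 genes were called higher, against 8.97% of all tested genes, with 0 lower and a median of 0.10, where 3 had an unadjusted p under 0.05 and DESeq2 called 2 higher and 0 lower. Cmpk2, a mitochondrial nucleotide kinase that interferon also induces, was at 24.2, 48.0, 14.4 and 17.2 CPM in Tim-4+ and 18.8, 25.0, 10.5 and 9.23 CPM in Tim-4- TAMs, higher in all 4 pairs although the groups overlapped (log2 difference 0.67 ± 0.14, SE, adjusted p = 0.0214). Nme4, a mitochondrial nucleoside diphosphate kinase, had a log2 difference of 0.65 ± 0.14 (SE, adjusted p = 0.0219) and was also higher in all 4 pairs. Neither was called without pair 784 or 779 (adjusted p of 0.0829 to 0.115), without the block or under total-count scaling, nor was Nme4 without pair 793. The salvage kinases Tk2 and Dguok had differences of 0.15 and 0.22 and did not pass.

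Transcriptional regulators of nuclear genes for mitochondrial proteins had no gene called by edgeR among the 11 tested of 12, and 1 with an unadjusted p under 0.05. DESeq2 with the same block called 0 higher and 1 lower. In both tools the gene was Ppargc1a, a coactivator of mitochondrial biogenesis, at 0.672, 0.760, 1.35 and 0.354 CPM in Tim-4+ and 1.68, 1.64, 1.26 and 2.32 CPM in Tim-4- TAMs. Its log2 difference was -1.22 (95% interval -2.32 to -0.12, adjusted p = 0.114), at a very low level. Ppargc1b (0.28) and Pprc1 (0.14) are its relatives, and Nrf1 (0.08), Gabpa (0.15) and Esrra (-0.09) encode transcription factors. Binding of these factors to promoters of the members was not measured here. For Nrf1 the 95% interval of the log2 difference was -0.17 to 0.33 and for Gabpa -0.10 to 0.41.

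The promoters of the members were searched for letters bound by NRF1 and by GABPA, and none were searched for ESRRA. The windows, from RefSeq on GRCm38.p6, reach from 250 bases before to 50 after an annotated start, and all 10 members had at least 1, with 11 windows in all. CCGGAAG, the core bound by GABPA and other ETS factors, occurred on either strand in a window of 7 of 10 members and in 8.86% of all 32851 windows. TGCGCA, a half-site of the NRF1 motif, occurred for 2 of 10, Polrmt and Tfb2m, and in 7.76% of all windows. For both, the count is of members with a match in any window, while the percentage is of single windows. Neither occurred for Tfb1m and Lrpprc. The sites below are printed with 11 flanking bases on each side. They show the ETS core in promoters of the genes that fell (Tfam, Twnk) and of 3 that did not pass (Polrmt, Polg, Tefm). For contrast, the last is the NRF1 half-site of Tfb2m, which held no ETS core. The matched letters are in capitals, and each sequence is written 5′ to 3′ on the strand that reads them.
Tfam, chr10:71238074-71238102, minus strand: cctgccgcggaCCGGAAGtccgggcttcc
Twnk, chr19:45006481-45006509, minus strand: tcgcggtgactCCGGAAGcaaaactctcc
Twnk, chr19:45006437-45006465, minus strand: caaccccggaaCCGGAAGtcaccggttag
Polrmt, chr10:79746607-79746635, plus strand: ttctgcgactgCCGGAAGcgctcttaggg
Polg, chr7:79466294-79466322, minus strand: gaggacctcacCCGGAAGtccctctgcac
Tefm, chr11:80142145-80142173, minus strand: agcacacgaaaCCGGAAGttgaggaggaa
Tfb2m, chr1:179546441-179546468, minus strand: ccgcctccctcTGCGCAaccctcccggc
Counted from the RefSeq starts of these windows, the ETS core lay 47 bases before the start of Tfam and 38 before that of Polg. It lay 66 and 110 bases before the downstream start of Twnk. These sites of Tfam, Polg and Twnk fall inside the gene spans given above, which begin further upstream. It stood in promoters of called and uncalled members alike, and a match in letters does not show that a factor binds there.

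Markers of mesothelial and tumor cells and of dividing cells moved with the same comparison. Proliferation genes were lower in Tim-4+ TAMs, with 9 of 14 called lower, 0 higher and a median log2 difference of -0.64, and a summed level of 631 to 965 CPM against 996 to 1319 CPM in Tim-4- TAMs. The mesothelial and tumor markers had a median log2 difference of -2.25, and none was at 0 in all libraries. Their sum in the Tim-4- libraries was 455 CPM in pair 793, 1398 in 784, 906 in 783 and 2197 in 779, where the log2 ratio of Tfam was -0.34, -0.84, -0.56 and -0.78. Of the other marker lists, lymphocyte genes summed to 4.81 to 13.4 CPM in Tim-4+ and 10.1 to 16.8 CPM in Tim-4- TAMs, dendritic cell genes to 13.6 to 29.4 and 10.3 to 17.7 CPM, and granulocyte and mast cell genes to 1.10 to 2.48 and 0.854 to 12.2 CPM. The part of these cells, or of cells with Timd4 left in the Tim-4- libraries, in the differences in Tfam, Twnk and Dna2 was not tested.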

How the data were processed

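Per the labels, each of 8 libraries was sequenced in 2 lanes, and the deposited files hold raw read counts per Ensembl gene for each lane. The study's methods describe rRNA-depleted, stranded total RNA libraries. The submitters' processing notes name FastQC 0.11.3, TopHat2 2.0.13, Cufflinks, Cuffdiff 2.2.1 and GRCm38; the counting tool and its strand setting are not given in the sources used here. Lanes were summed after summary lines that name no gene were left out, and 0 columns stayed unmapped. Of the 55604 identifiers, 98.6% matched GENCODE M21. The table of 1 lane lists symbols and was joined by order, with 96.8% of its symbols matching.

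A gene was tested where 4 or more libraries had 10 or more counts of it, with edgeR 4.0.16 (TMM, robust quasi-likelihood fit, pair as a block) in R 4.3.3, with Benjamini-Hochberg adjustment; the SE is the log2 difference over the square root of F. The script was tested on simulated data. Same-numbered libraries deviated together (r = 0.471, 0.498, 0.408 and 0.277), and the study calls the subsets paired. Alternatives were DESeq2 1.42.0, other scalings and filters, single lanes, no block and leaving out each pair. All members are named, with the mRNAs and rRNAs of mitochondrial DNA, and from each other list the genes called plus a fixed set of regulators and maintenance factors. Members and lists were chosen with earlier results of these data known.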

Additional observations from a re-analysis of the deposited data

Results flagged for a closer look

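Of 46 groups of 4 libraries checked for a value far from the other 3, 6 had one; chance alone gives about 1 in 20. Among the members, Polg2 was highest in the Tim-4- library of pair 783, at 6.09 CPM with the next at 4.50 CPM. Slirp was lowest in the Tim-4+ library of pair 783, at 0.475 CPM with the next at 0.778 CPM, both within counts of 26 to 40 a library.

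The other 4 were mRNAs of mitochondrial DNA at low counts that share nearly all of their sequence with nuclear copies. mt-Co3 was at 8.97 CPM in the Tim-4- library of pair 779, with the next at 1.67 CPM. In that library mt-Co3 had 38 counts in lane 1 and 546 in lane 2, and lane 2 set aside 3153643 reads as not unique against 10020232 in lane 1. mt-Nd3 was lowest in pair 784 of both subsets, at 1.20 CPM in Tim-4+ (next 2.50 CPM) and 0.588 CPM in Tim-4- TAMs (next 0.824 CPM). mt-Nd4l was highest in the Tim-4- library of pair 793, at 0.315 CPM with the next at 0.169 CPM.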

How the results depend on the processing

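Of the 14 alternatives, none called a member higher. The count of members called lower, 2 with the pair block, was 0 with no replicate block, 1 with lane 2 alone (Tfam), 5 when libraries were scaled by total counts (Tfam, Twnk, Polrmt, Polg and Lrpprc), and 0 to 2 when each pair was left out, with 0 without pair 793, 784 or 779. The block also set the number of genes called, 2933 with it and 232 without it, and DESeq2 with the block called 4522 genes and both Tfam and Twnk. Without the pairs the number was 1189 (793), 132 (784), 3468 (783) and 773 (779), and it was 2862 with no count filter. Tfam and Twnk were lower in all 14, with log2 differences of -0.99 to -0.56 and -0.98 to -0.50 and adjusted p-values of 0.000771 to 0.106 and 0.00334 to 0.116. Total counts moved the median of all genes to -0.36, and the share of calls that were higher from 51.6% of 2933 to 13.9% of 5695. The median of the members was then -0.54, and Tfb1m (-0.14), Tfb2m (-0.16) and Polg2 (-0.24) turned negative. Relative to the median of all genes, Tfam stood at -0.63 and Twnk at -0.62 under that scaling too. With TMM and each pair left out, the median of the members ran from -0.23 to -0.09 (without pair 793). The median of the 13 mRNAs of mitochondrial DNA stayed between 0.81 and 1.37. Slirp could not be fitted where 1 CPM was required in all libraries. Tefm and Polg2 had 119 to 478 counts a library, and their intervals were wide.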
